A study of Mus musculus with 2 samples.

Results

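The 10 genes described here belong to the interleukin-6 family and were followed through regenerating mouse muscle: 5 ligands (*Il6*, *Lif*, *Osm*, *Il11* and *Clcf1*), 4 receptor chains (*Il6ra*, *Il6st*, *Osmr* and *Lifr*) and the transcription factor *Stat3*. They were taken by symbol from the deposited gene list, in which they are 10 of 32285 genes, and each of the 10 had at least 1 unique molecular identifier (UMI, a counted RNA molecule) in the cells kept. The data are single-cell RNA libraries of quadriceps muscle at day 1 and day 3 after injury, 1 library per day. Each library was made from the right quadriceps of 5 pooled male wild-type C57BL/6J mice aged 14 weeks, injured by injection of BaCl2, a salt that kills myofibers. Only mononuclear cells sorted by light scatter were loaded, so the myofibers themselves were not sampled, and uninjured muscle was not analysed here.

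The cytokines among these genes signal through receptor complexes that hold gp130, the protein made by *Il6st*. A partner chain sets which cytokine a cell can answer: IL-6 binds the IL-6 receptor (*Il6ra*), IL-11 the IL-11 receptor (*Il11ra1*), LIF the LIF receptor (*Lifr*) and oncostatin M the oncostatin M receptor (*Osmr*) or, with a preference that differs between species, the LIF receptor, while CLCF1 uses a complex of CNTFR, the LIF receptor and gp130. JAK kinases on these chains then activate STAT3, and SOCS3 shuts the signal off. The IL-6 receptor can also be cut from the cell surface and, bound to IL-6, act on cells that have gp130 alone, which is called trans-signalling. In injured muscle, LIF and IL-6 are known to act on myoblasts, and stromal fibro/adipogenic progenitors (FAPs) are a known source of IL-6.

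The genes lie on several chromosomes of the mouse genome, and 2 pairs are neighbours. In the GRCm38.p6 annotation, *Osm* (chr11:4236785-4241026) and *Lif* (chr11:4257568-4272514) are 16541 bases apart with 0 genes between them. *Osmr* (chr15:6813568-6874968) and *Lifr* (chr15:7090610-7197489) are 216 kb apart with 0 coding genes between them. The others are *Il6* (chr5:30013114-30019975), *Il11* (chr7:4772373-4782907), *Clcf1* (chr19:4214238-4223505), *Il6ra* (chr3:89869324-89913196), *Il6st* (chr13:112464070-112506860) and *Stat3* (chr11:100886806-100939594).

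RefSeq promoter windows of 250 bases before the transcription start were at hand for 8 of the 10 genes, 10 windows in all. *Osm* and *Clcf1* had no entry. Motifs were searched on both strands: the AP-1 site TGAGTCA, which reads TGACTCA on the other strand, the NF-kB site, and the STAT site TTCNNNGAA. The NF-kB site was GGGA and TCC with any 3 bases between. The AP-1, NF-kB and STAT sites are held by 4.46%, 3.86% and 7.02% of 32851 such windows of the genome, in that order. The AP-1 letters were found in 3 of the 4 ligand windows and in 0 of the 6 windows of receptor genes and *Stat3*. The NF-kB letters were found in 1 window, that of *Il6*, and the STAT letters in 0 of the 10. The 3 ligand windows with a match are shown, with the window of *Socs3*, the feedback gene of the pathway, for the STAT letters. All are from GRCm38.p6, 5′ to 3′ on the gene's strand, with motif matches in capitals, and a match is a description of letters, not a bound site.
Il6, chr5:30012864-30013113, plus strand: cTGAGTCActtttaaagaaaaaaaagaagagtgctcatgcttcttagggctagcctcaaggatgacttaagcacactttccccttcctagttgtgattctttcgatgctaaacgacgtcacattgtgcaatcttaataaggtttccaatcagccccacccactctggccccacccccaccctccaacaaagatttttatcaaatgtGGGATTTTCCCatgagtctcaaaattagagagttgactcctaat
Lif, chr11:4257318-4257567, plus strand: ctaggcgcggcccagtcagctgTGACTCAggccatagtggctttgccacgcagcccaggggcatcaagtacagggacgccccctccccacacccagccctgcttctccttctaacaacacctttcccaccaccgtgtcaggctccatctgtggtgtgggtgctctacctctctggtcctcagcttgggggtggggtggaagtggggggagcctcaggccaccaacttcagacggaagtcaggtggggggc
Il11, the second of 2 annotated starts, chr7:4778142-4778391, minus strand: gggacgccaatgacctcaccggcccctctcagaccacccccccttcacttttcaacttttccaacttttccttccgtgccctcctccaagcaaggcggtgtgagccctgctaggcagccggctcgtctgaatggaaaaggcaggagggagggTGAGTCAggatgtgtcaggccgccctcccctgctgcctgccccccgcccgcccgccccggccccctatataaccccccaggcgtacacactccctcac
Socs3, chr11:117969367-117969616, minus strand: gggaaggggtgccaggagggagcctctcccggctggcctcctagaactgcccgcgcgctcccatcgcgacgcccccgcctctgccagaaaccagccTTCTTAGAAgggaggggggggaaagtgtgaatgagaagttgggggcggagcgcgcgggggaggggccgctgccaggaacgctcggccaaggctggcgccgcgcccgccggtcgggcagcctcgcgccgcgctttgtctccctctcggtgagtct
The capitals mark AP-1 letters at −249 to −243 from the start in *Il6*, at −228 to −222 in *Lif* and at −98 to −92 in *Il11*. In *Il6* they also mark 2 overlapping NF-kB matches, the first at −44 to −35, and in *Socs3* the STAT letters at −154 to −146.

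The libraries held 74852240 UMIs on day 1 and 102565783 on day 3. Of the 7367 and 6640 barcodes with most UMIs, 6735 and 4627 passed the limits of at least 1000 UMIs, at least 200 genes and at most 7.5% mitochondrial UMIs. The deposited barcode lists differ in length between the days, and a difference in 10x kit chemistry that may go with them cannot be told apart from the day in any ratio of day 3 over day 1. The mitochondrial limit alone took 7.02% of barcodes on day 1 and 30.3% on day 3. Cells kept had a median of 9389 and 14548 UMIs, and 0 barcodes were shared. The 15 clusters were named from markers, with "-like" for a name rebuilt here. Day 1 had 3512 monocyte/macrophage-like cells (52.1%), 2076 neutrophil-like (30.8%), 724 fibroblast/FAP-like (10.7%) and 406 dendritic cell-like cells (6.03%). Day 3 had 2816 (60.9%), 257 (5.55%), 873 (18.9%) and 438 (9.47%) of these, and 201 satellite cell/myoblast-like cells, of which day 1 had 5. T/NK-like cells numbered 12 and 42, too few for a level.

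Several features of these classes bear on every value that follows. Monocyte/macrophage-like cells of the 2 days lay mostly in different clusters: those led by *Ppbp*, *Serpinb2* and *Gm9733* on day 1 (1243, 1144 and 796 cells) and those led by *Fcrls*, *Gpnmb*, *Ifit1bl1* and *Nusap1* on day 3 (1403, 542, 240 and 178 cells). The *Ifitm6* cluster had cells of both days (262 and 416). Fibroblast/FAP-like cells were mostly in the *Il1rl1* cluster on day 1 (634 of 724) and in the *Sfrp2* cluster on day 3 (866 of 873). A finer clustering drew out a group named endothelial-like (*Cldn5*, *Gpihbp1*, *Esam*), with 94 cells on day 1 and 64 on day 3. Of these, 66 on day 1 and 24 on day 3 had been counted as fibroblast/FAP-like. Another 11 and 35 had been counted as T/NK-like, so most cells of the day 3 group came from that class. RNA of foreign origin was estimated in immune classes from stromal markers and in the other classes from neutrophil and macrophage markers. Doublets of an immune cell with a stromal cell add to it, while doublets between immune classes do not register. Low values in immune classes are thus no measure of such doublets. Foreign RNA so estimated made up 7.35% and 22.6% of fibroblast/FAP-like UMIs on days 1 and 3. In neutrophil-like cells it made up 2.03% and 28.1%, in monocyte/macrophage-like cells 2.05% and 1.78%, and in dendritic cell-like cells 0.825% and 1.21%. The share of a member's level that such RNA would supply is given for some levels below. It was 100% for *Il6*, *Osm* and *Osmr* and 66.9% for *Il6ra* in satellite cell/myoblast-like cells of day 3. In neutrophil-like cells of day 3 it was 100% for *Il6*, 46.6% for *Clcf1* and 32.5% for *Lif*. For *Il6* in dendritic cell-like cells of day 3 it was 44.9%.

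Levels are UMIs of a gene per 1000000 UMIs (CPM), summed over a class, with 95% intervals (exact Poisson). Shares of cells have Clopper-Pearson intervals. With 1 library per day, these intervals hold counting error alone, no test between days was possible, and no p-value is given. A gene is counted as lower or higher where its CPM differed at least 2-fold between days with at least 50 UMIs over both.

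The family did not move as a block. Over all cells, 3 of the 10 members, the ligands *Osm*, *Lif* and *Clcf1*, were at least 2-fold lower on day 3, and 1, the receptor *Osmr*, was at least 2-fold higher. Among all 14133 genes with enough UMIs, 5.63% were lower and 27.8% higher, and the median log2 ratio was 0.46 against −0.52 for the members. In monocyte/macrophage-like cells, 4 of the 8 members with enough UMIs were lower (background 5.15%) and 0 higher (background 28.5%), and the 4 were the ligands detected there. In dendritic cell-like cells the same 4 ligands were lower (4 of 8, background 3.72%) and *Lifr* was higher (1 of 8, background 15.6%). When cells were thinned to 1000 UMIs, though, *Il6*, *Lif* and *Osm* there came to −0.11, −0.59 and −0.64 and fell short of 2-fold. On days 1 and 3 that class had 3372 and 4710 CPM of 10 monocyte/macrophage markers. Its 9 dendritic cell markers summed to 478 and 418, against 5.79 and 6.15 in monocyte/macrophage-like cells. What part monocyte or macrophage RNA has in the dendritic cell-like ratios was not tested. In neutrophil-like cells *Osm* and *Stat3* were lower (2 of 4, background 8.52%) and 0 were higher (background 33.7%). The summed level of 10 neutrophil markers in that class also went down, from 92480 to 28819 CPM. That of 10 monocyte/macrophage markers went from 308 to 2936 and that of 8 fibroblast/FAP markers from 28.2 to 1618. Their part in the neutrophil-like ratios of any gene was not tested. In fibroblast/FAP-like cells *Lif* was lower (1 of 10, background 7.5%) and *Lifr* higher (1 of 10, background 22.3%). Sums over all cells mix the level within cells with the make-up of the sample, which differed between days, so each gene is described by class.

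**Figure D1:**
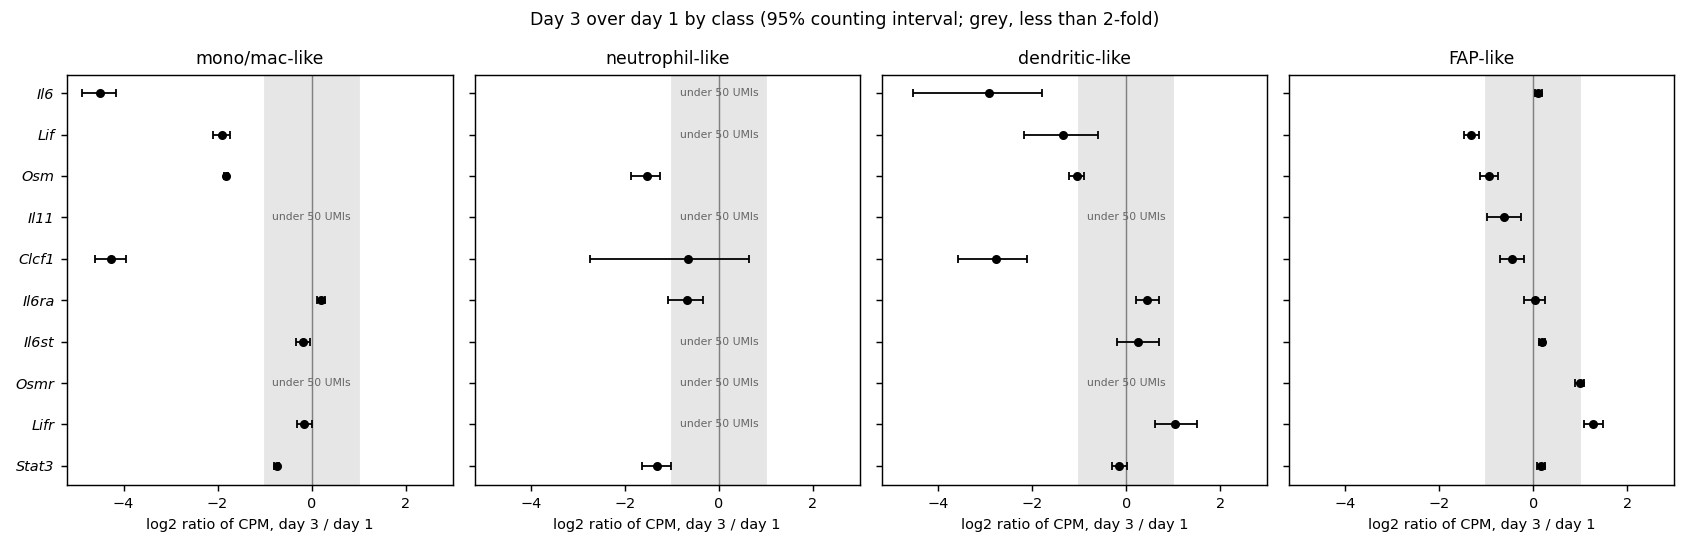
Log2 ratio of CPM, day 3 over day 1, for each member in each cell class, with 95% counting intervals and a grey band for differences under 2-fold. The ligands shown for monocyte/macrophage-like cells lie left of the band, from −1.82 for *Osm* to −4.50 for *Il6*, while *Il6* in fibroblast/FAP-like cells lies at 0.11.

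*Osm*, which encodes oncostatin M, had the most UMIs among the ligands and was highest in immune cells. On day 1 its level was 368 CPM in neutrophil-like cells (95% CI 352 to 385), 346 in monocyte/macrophage-like cells (340 to 352), 192 in dendritic cell-like cells (180 to 204) and 29.6 in fibroblast/FAP-like cells (27.3 to 32.2). These 4 intervals were separate. On day 3 the levels were 126 (102 to 155), 97.7 (94.8 to 101), 92.9 (84.7 to 102) and 15.4 CPM (13.9 to 17.0), and satellite cell/myoblast-like cells had 2.11. The day 3 intervals of monocyte/macrophage-like and dendritic cell-like cells overlapped. Levels were thus lower on day 3 in each of the 4 classes, by log2 ratios of −1.54, −1.82, −1.05 and −0.94. The dendritic cell-like value, a 2.07-fold difference, was just past the 2-fold limit, and stayed past it in 8 of 12 alternatives. The neutrophil-like value stayed past it in 10 of 13. Markers of neutrophils, where *Osm* was highest, also went down in the other immune classes: the summed level of the 10 markers went from 1767 to 420.4 CPM in monocyte/macrophage-like cells and from 1554 to 171 in dendritic cell-like cells, each with 0 markers at 0, and their part in the *Osm* ratios was not tested. The fibroblast/FAP-like value, 1.92-fold, was just short of the limit, and 61.1% and 82.9% of the *Osm* level of that class on days 1 and 3 was within what foreign RNA would supply. With doublets removed the log2 ratio of that class was 0.47, the opposite sign.

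Monocyte/macrophage-like cells, the largest class, held 80.4% of *Osm* UMIs on day 1 and 81.8% on day 3, against 10.7% and 1.75% in neutrophil-like cells. A UMI of *Osm* was found in most cells of the class: 79.2% of monocyte/macrophage-like cells (77.9 to 80.6) on day 1 and 55.0% (53.1 to 56.8) on day 3. Within fibroblast/FAP-like cells, which were deeper, that share was 17.3% on both days. When each cell was thinned to 3000 UMIs, 51.3% and 22.1% of monocyte/macrophage-like cells kept an *Osm* UMI, so the difference between days was there at equal depth. Thinned to 1000 UMIs, 25.9% (24.5 to 27.4) of monocyte/macrophage-like and 23.0% (21.2 to 24.8) of neutrophil-like cells kept one on day 1. The order of these classes by share of cells was thus not their order by CPM. Within the class on day 1, the *Serpinb2* cluster had 454 CPM with 89.4% of cells positive, *Gm9733* 325, *Ppbp* 276 and *Ifitm6* 215. The day 3 order was *Ifitm6* 149, *Ifit1bl1* 135, *Fcrls* 105, *Gpnmb* 73.0 and *Nusap1* 69.0 CPM. Every cluster of the class was lower on day 3 than every cluster on day 1, among these 9 values. In the *Ifitm6* cluster, which had cells of both days, the level went from 215 to 149 CPM.

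*Il6*, the cytokine that names the family, was highest in 2 classes on day 1 and in 1 of them on day 3. Fibroblast/FAP-like cells had 110 CPM (106 to 115) on day 1 and 119 (114 to 123) on day 3, a log2 ratio of 0.11 (0.02 to 0.19), with 46.1% and 55.1% of cells positive. Monocyte/macrophage-like cells had 34.7 CPM (32.9 to 36.6) on day 1 and 1.53 (1.19 to 1.94) on day 3, a log2 ratio of −4.50 (−4.88 to −4.16), or 22.6-fold, with 13.01% and 1.74% of cells positive. Of the day 3 level of this class, 50.9% was within what foreign RNA would supply, against 2.61% on day 1. In dendritic cell-like cells the level went from 9.48 CPM (7.01 to 12.5) to 1.18 (0.431 to 2.56). Neutrophil-like cells had 22 UMIs on day 1, 20 of them in 1 cell, and 3 UMIs on day 3. Satellite cell/myoblast-like cells had 2.22 CPM on day 3, with 1.99% of cells positive and 17 of 20 UMIs in 1 cell. The day 3 intervals of these classes below the fibroblast/FAP-like one overlapped from each to the next.

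The classes that held *Il6* RNA differed between days. Fibroblast/FAP-like cells held 58.8% of all *Il6* UMIs on day 1 and 96.8% on day 3, and the level over all cells went from 51.2 to 35.8 CPM, a log2 ratio of −0.52. Within monocyte/macrophage-like cells the day 1 level was 71.4 CPM in the *Serpinb2* cluster, 25.5 in *Gm9733*, 15.5 in *Ifitm6* and 8.07 in *Ppbp*. The *Ppbp* cluster was also led by *Ednrb* and *Pf4*. On day 3 the *Ifitm6* cluster had 4.97 CPM and the other 4 clusters between 0.86 and 3.18. In fibroblast/FAP-like cells, the *Il1rl1* cluster had 114 CPM on day 1 and the *Sfrp2* cluster 119 on day 3. Without the endothelial-like cells the class had 112 and 119 CPM, while the endothelial-like cells themselves had 23.1 and 24.9. On day 3 the endothelial-like group had *Nkg7*, a leading gene of the T/NK-like cluster, at 477 CPM. *Pecam1* was at 413 and *Cldn5* at 144 there, while on day 1 the 3 genes were at 12.1, 450 and 657. Day 3 levels of that group are thus those of mixed cells.

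*Il6* was concentrated in few cells even where it was highest. The 10% of fibroblast/FAP-like cells with most *Il6* held 65.1% of its UMIs in that class on day 1 and 53.3% on day 3, and the largest count in a cell was 61. In monocyte/macrophage-like cells of day 1 the top 10% held 92.6%, with 22 cells at 10 or more UMIs. For comparison, the top 10% of the same fibroblast/FAP-like cells held 30.9% and 26.7% of the UMIs of *Il6st*. These shares move with the mean count per cell as well as with unevenness between cells.

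**Figure D2:**
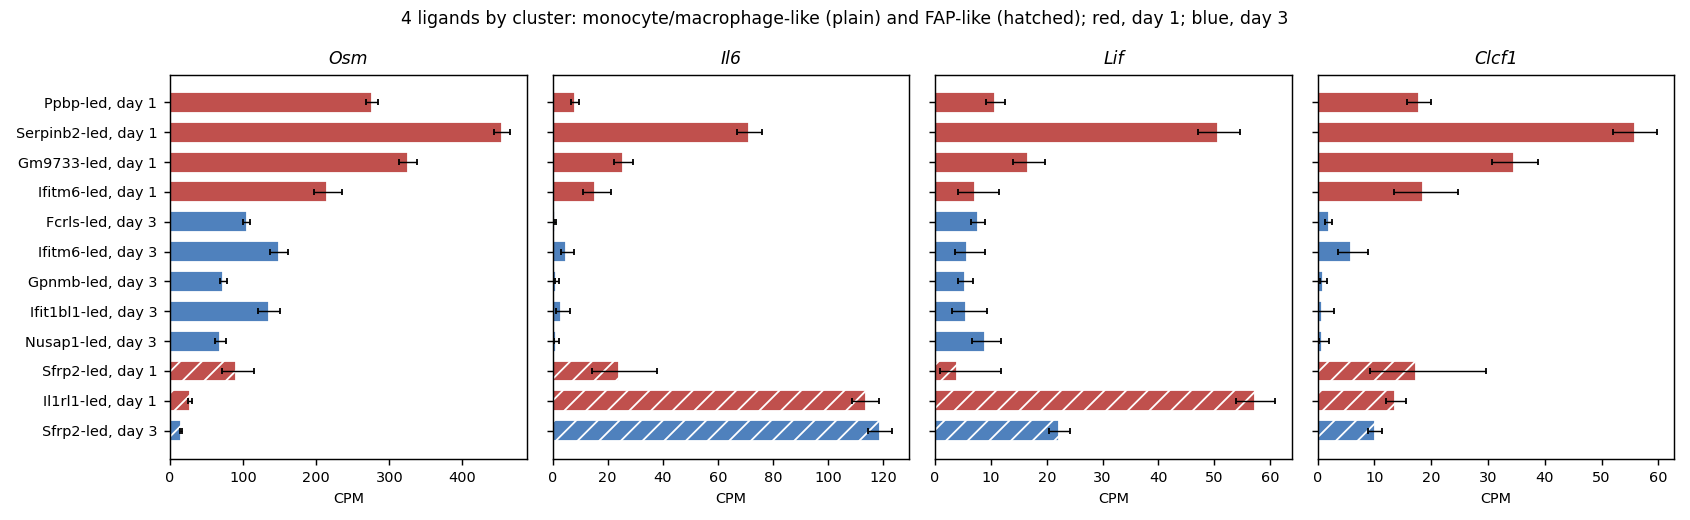
Level (CPM, linear axis from 0) of *Osm*, *Il6*, *Lif* and *Clcf1* in each monocyte/macrophage-like (plain bars) and fibroblast/FAP-like (hatched bars) cluster, day 1 in red and day 3 in blue, with 95% Poisson intervals. The *Serpinb2* cluster of day 1 has the highest *Osm* level, 454 CPM, and the *Sfrp2* cluster of day 3 and the *Il1rl1* cluster of day 1 have the highest *Il6* levels, 119 and 114 CPM.

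*Lif*, which encodes leukemia inhibitory factor, followed *Il6* in place but not in time. On day 1 fibroblast/FAP-like cells had 55.3 CPM (52.0 to 58.7), monocyte/macrophage-like cells 26.1 (24.5 to 27.7), dendritic cell-like cells 10.1 (7.51 to 13.2) and neutrophil-like cells 3.11 (1.78 to 5.05), with 4 separate intervals. Day 3 levels were 22.2 CPM (20.3 to 24.1), 6.91 (6.16 to 7.73), 3.92 (2.39 to 6.05) and 6.79 (2.21 to 15.9), the last on 5 UMIs. The log2 ratios were −1.32 (−1.47 to −1.17) in fibroblast/FAP-like cells, −1.91 (−2.10 to −1.73) in monocyte/macrophage-like cells and −1.34 (−2.18 to −0.59) in dendritic cell-like cells. So in fibroblast/FAP-like cells *Lif* was 2.49-fold lower on day 3 while *Il6* differed by 1.08-fold. Positive cells were 32.3% and 20.8% of that class. When cells were kept by at least 200 genes per 1000 UMIs in place of 200 genes, the *Lif* ratio of the class was −0.28 and no longer past 2-fold. Markers of other cells moved within this class as well: between days the summed level of 5 tenocyte markers went from 928 to 303 CPM, of 10 neutrophil markers from 743 to 112, of 5 erythroid markers from 85.9 to 0.285, of 6 mast cell markers from 58.2 to 0.569 and of 7 mural markers from 22.1 to 312. On day 3, 3 of the mast cell markers, 1 erythroid and 1 neutrophil marker were at 0. Their part in the fibroblast/FAP-like ratios of any member was not tested.

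In the monocyte/macrophage-like clusters *Lif* kept the order of *Il6* on day 1, with 50.8 CPM in *Serpinb2*, 16.6 in *Gm9733* and 10.7 in *Ppbp*, save that *Ifitm6*, at 7.13, was lowest. Day 3 clusters of the class had between 5.33 and 8.95 CPM. Without endothelial-like cells the fibroblast/FAP-like levels were 56.8 and 22.4 CPM. The endothelial-like cells had 7.70 and 2.49, the latter on 1 UMI in the mixed day 3 group.

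Detection of several ligands in the same cell was compared at equal depth. In monocyte/macrophage-like cells of day 1 thinned to 3000 UMIs, *Lif* was found in 17.3% (12.5 to 22.9) of 220 cells with *Il6* and in 5.44% (4.67 to 6.29) of 3162 cells without it. *Clcf1* was found in 19.1% (14.1 to 24.9) and 9.74% (8.73 to 10.8) of the same cells. Within fibroblast/FAP-like cells of day 1 *Lif* was found in 22.7% (15.7 to 30.9) of 128 cells with *Il6* and 6.15% (4.32 to 8.45) of 569 without, and on day 3 in 6.95% (3.75 to 11.6) of 187 and 5.40% (3.79 to 7.43) of 648, intervals that overlapped. Cells of 1 library are not replicates, and cells of one cluster share more than these genes, so these shares are a description.

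*Clcf1*, which encodes cardiotrophin-like cytokine factor 1, behaved in immune cells as *Il6* did. Monocyte/macrophage-like cells had 34.6 CPM (32.8 to 36.5) on day 1 and 1.80 (1.42 to 2.24) on day 3, a log2 ratio of −4.26 (−4.61 to −3.94), with 27.8% and 2.59% of cells positive. Dendritic cell-like cells had 25.9 CPM (21.7 to 30.7) and 3.72 (2.24 to 5.81), a log2 ratio of −2.77. The *Serpinb2* cluster had the highest level on day 1, 55.9 CPM, followed by *Gm9733* at 34.6. Fibroblast/FAP-like cells had 13.8 CPM (12.2 to 15.6) and 10.1 (8.91 to 11.5), a log2 ratio of −0.45, and 24.3% and 20.1% of these levels was within what foreign RNA would supply. On day 3 the highest class was satellite cell/myoblast-like, at 11.9 CPM (9.73 to 14.3) with 38.3% of cells positive, an interval that overlapped that of fibroblast/FAP-like cells. The cells of that class were also the deepest. Neutrophil-like cells had 9.53 CPM on day 1 and 5.43 on day 3, the latter on 4 UMIs.

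*Il11* had the fewest UMIs of the 10 members and was found almost entirely in fibroblast/FAP-like cells, which held 94.7% of its 151 UMIs on day 1 and 95.2% of its 124 on day 3. Their level was 7.36 CPM (6.2 to 8.67) on day 1 and 4.80 (3.97 to 5.75) on day 3, a log2 ratio of −0.62 (−0.98 to −0.26). Positive cells were 7.18% and 5.84% of the class, and a single cell held 34 of 143 UMIs on day 1 and 38 of 118 on day 3, so the ratio rests on few cells. Other classes had at most 7 UMIs on a day. In dendritic cell-like cells of day 1 there were 0 UMIs, which allows a level of up to 0.580 CPM at 3 counts, or 0.713 at the upper end of the Poisson interval.

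**Figure D3:**
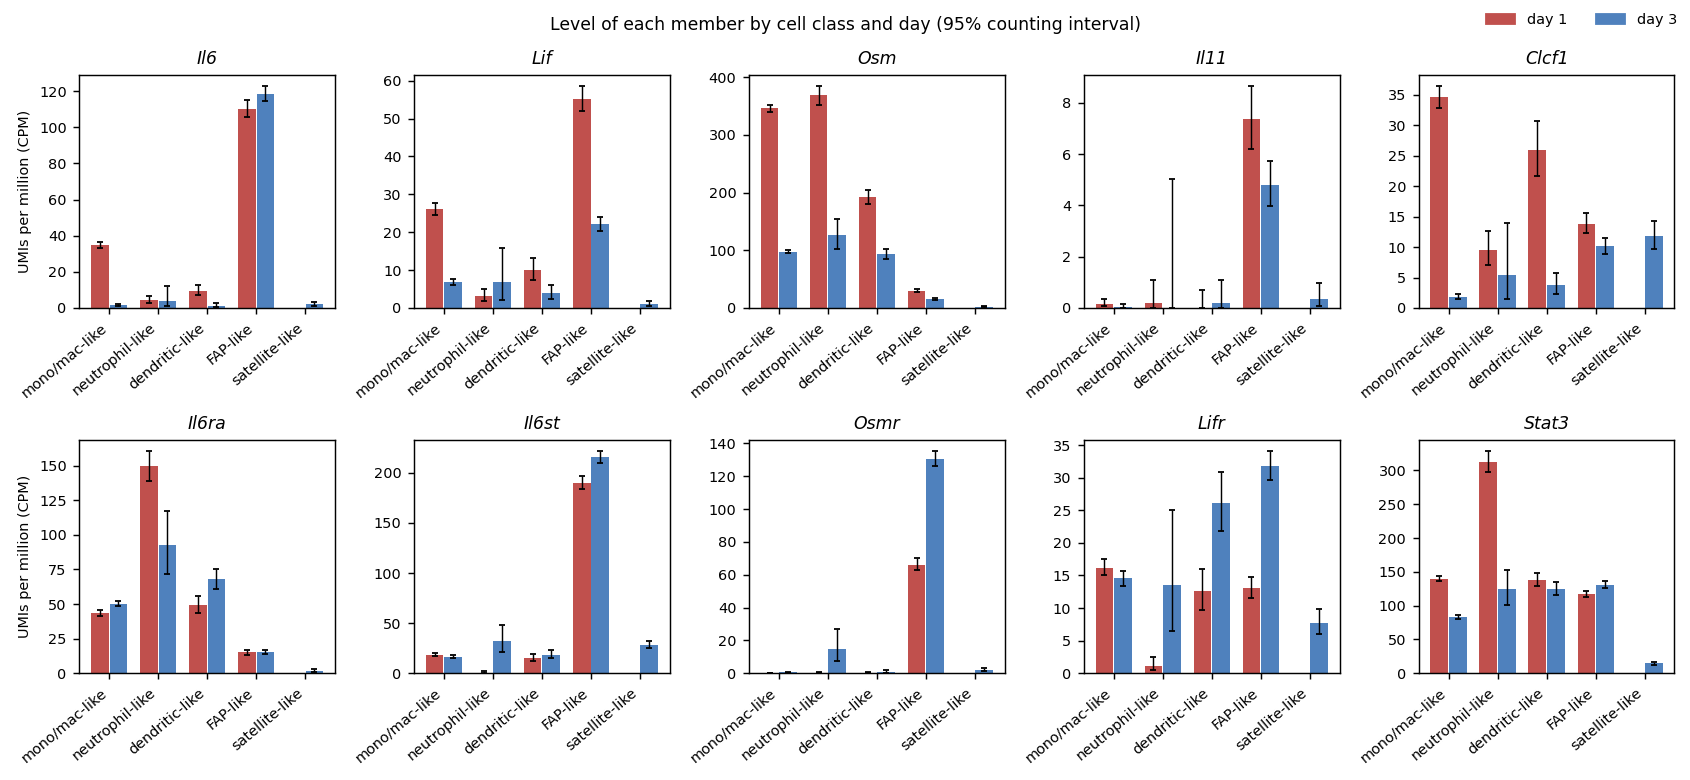
Level (CPM, linear axis from 0) of each member by cell class and day, with 95% Poisson intervals, for classes with at least 50 cells on that day. Ligands *Osm* and *Clcf1* are highest in immune classes on day 1, and *Il6*, *Lif*, *Il11*, *Il6st* and *Osmr* in fibroblast/FAP-like cells.

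The receptors were spread over the classes differently from the ligands. *Il6st*, the shared gp130 chain, was highest in fibroblast/FAP-like cells, at 190 CPM (184 to 196) on day 1 and 216 (210 to 222) on day 3, where 89.0% and 92.2% of cells had a UMI and which held 81.1% and 82.6% of all its UMIs. Monocyte/macrophage-like cells had 18.7 CPM (17.4 to 20.1) and 16.5 (15.4 to 17.8), and dendritic cell-like cells 15.7 (12.4 to 19.5) and 18.6 (15.1 to 22.8), with overlapping intervals between the 2 classes on each day. The log2 ratios were 0.18, −0.18 and 0.25, all within the 2-fold limits. Satellite cell/myoblast-like cells had 28.6 CPM (25.2 to 32.3) on day 3, with 69.2% of cells positive. Endothelial-like cells had 64.9 CPM on day 1 and 77.1 in the mixed day 3 group.

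Neutrophil-like cells had the lowest *Il6st* level of the 4 classes on day 1, with 4 UMIs in 2076 cells, a level of 0.778 CPM (0.212 to 1.99). Foreign RNA alone would supply all of it. On day 3 the 257 neutrophil-like cells had 24 UMIs, or 32.6 CPM (20.9 to 48.5), of which 62.6% was within the foreign-RNA estimate, and 11 cells held them. What part foreign RNA has in that difference beyond this estimate was not tested.

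*Il6ra*, which encodes the chain that binds IL-6, had nearly the reverse order. On day 1 neutrophil-like cells had 150 CPM (139 to 161), dendritic cell-like cells 49.5 (43.6 to 56.0), monocyte/macrophage-like cells 43.7 (41.7 to 45.7) and fibroblast/FAP-like cells 15.2 (13.6 to 17.1). The middle intervals of this order overlapped. On day 3 the levels were 92.4 (71.7 to 117), 67.8 (60.8 to 75.3), 50.3 (48.3 to 52.5) and 15.5 CPM (14.0 to 17.2), with 1.78 in satellite cell/myoblast-like cells. The log2 ratios were −0.69, 0.45, 0.20 and 0.03, all within the 2-fold limits, and the first of them was 0.06 with each library clustered on its own. Within monocyte/macrophage-like cells the *Ifitm6* cluster was highest on both days, at 86.9 and 83.9 CPM, against 36.8 to 50.3 in the other day 1 clusters and 40.2 to 68.7 in the other day 3 clusters. Of the fibroblast/FAP-like level, 12.8% on day 1 and 33.2% on day 3 was within what foreign RNA would supply.

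Cells with both chains of the IL-6 receptor were rare where *Il6ra* was highest. Of 586 neutrophil-like cells with an *Il6ra* UMI on day 1, 3 had an *Il6st* UMI, or 0.512%. Both were found in 0.145% (0.0298 to 0.422) of all neutrophil-like cells, in 7.23% (6.40 to 8.14) of monocyte/macrophage-like, 8.13% (5.66 to 11.2) of dendritic cell-like and 26.9% (23.7 to 30.3) of fibroblast/FAP-like cells. The day 3 shares were 1.56%, 11.3%, 9.82% and 27.9%, with 3.48% in satellite cell/myoblast-like cells. Depth differs by class, and a neutrophil-like cell had a median of 2155 UMIs on day 1 against 26158.5 in a fibroblast/FAP-like cell. Thinned to 3000 UMIs, the day 1 shares were 0.340% in neutrophil-like, 0.651% in monocyte/macrophage-like, 1.01% in dendritic cell-like and 2.58% in fibroblast/FAP-like cells. The thinned neutrophil-like value rests on the few cells of that class above this depth, since 1782 of 2076 were left out. The order of the 4 classes was the same at this depth. Thinned to 1000 UMIs, both chains were found in 0% of neutrophil-like and fibroblast/FAP-like cells, 0.0285% of monocyte/macrophage-like and 0.246% of dendritic cell-like cells, shares too small to order the classes.

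**Figure D4:**
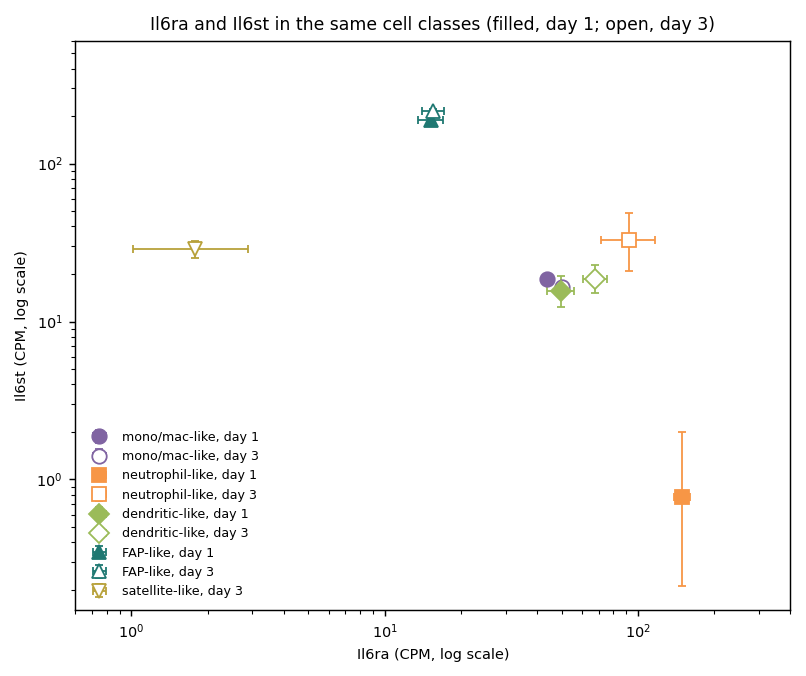
Level of *Il6st* (CPM, log axis) against level of *Il6ra* (CPM, log axis), 1 point per class and day, filled for day 1 and open for day 3, with 95% Poisson intervals. Fibroblast/FAP-like cells have the highest *Il6st* level, 190 and 216 CPM, and neutrophil-like cells of day 1 have the highest *Il6ra* level, 150 CPM, with *Il6st* at 0.778.

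*Osmr*, which encodes the oncostatin M receptor, was the most restricted receptor, with 99.1% of its UMIs on day 1 and 98.1% on day 3 in fibroblast/FAP-like cells. Their level was 66.2 CPM (62.7 to 70.0) on day 1 and 131 (126 to 135) on day 3, a log2 ratio of 0.98 (0.89 to 1.08), or 1.97-fold, just below the 2-fold limit, where it stayed in 12 of 16 alternatives. Positive cells were 72.9% and 86.0%, against 0.228% and 0.888% of monocyte/macrophage-like cells, whose median depth was 11166.5 and 13803.5 UMIs and that of the fibroblast/FAP-like cells 26158.5 and 25027. Over all cells it was 2.13-fold higher, from 18.3 to 39.0 CPM, and the fibroblast/FAP-like share of cells was also higher on day 3. Without endothelial-like cells the class had 66.8 and 131 CPM. Endothelial-like cells had 27.5 and 69.6, the latter in the day 3 group that came mostly from the T/NK-like class.

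Immune cells had almost no *Osmr*. Monocyte/macrophage-like cells had 0.243 CPM on day 1 and 0.673 on day 3, which foreign RNA would supply in full, dendritic cell-like cells had 0 and 3 UMIs, and neutrophil-like cells had 1 and 11, the 11 with 86.5% within the foreign-RNA estimate. Satellite cell/myoblast-like cells had 2.11 CPM (1.27 to 3.29). The gene for the ligand, *Osm*, and that for its receptor were thus highest in different classes on both days. Both *Osmr* and *Il6st* were found in 69.2% (65.7 to 72.5) of fibroblast/FAP-like cells on day 1 and 83.4% (80.8 to 85.8) on day 3, or 7.89% and 17.6% when thinned to 3000 UMIs.

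*Lifr*, which encodes the LIF receptor, had close levels in 3 classes on day 1. Levels were 16.2 CPM (15.01 to 17.5) in monocyte/macrophage-like cells, 13.1 (11.6 to 14.8) in fibroblast/FAP-like cells and 12.6 (9.70 to 16.0) in dendritic cell-like cells, with 1.17 in neutrophil-like cells on 6 UMIs. The first 2 intervals were separate, and the dendritic cell-like one overlapped both. On day 3 fibroblast/FAP-like cells had 31.8 CPM (29.6 to 34.1), dendritic cell-like cells 26.1 (21.8 to 30.9), monocyte/macrophage-like cells 14.5 (13.5 to 15.7) and satellite cell/myoblast-like cells 7.76 (6.05 to 9.81). The log2 ratios were 1.28 (1.07 to 1.49), 1.05 (0.61 to 1.5) and −0.16 (−0.32 to 0.00) in the first 3 of these. The dendritic cell-like ratio, 2.07-fold, was just past the limit. Endothelial-like cells had 16.5 CPM (9.24 to 27.2) on day 1. The mixed day 3 group of these cells had 49.7 (30.4 to 76.8) on 20 UMIs. Without them the fibroblast/FAP-like levels were 13.2 and 31.6 CPM.

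Within monocyte/macrophage-like cells *Lifr* spanned a wide range on day 3, from 46.5 CPM in the *Ifit1bl1* cluster and 30.3 in *Ifitm6* to 16.6 in *Fcrls*, 5.22 in *Nusap1* and 2.67 in *Gpnmb*. On day 1 the clusters of the class lay between 14.6 and 17.5 CPM. The flat class level thus held clusters above and below it. Both *Lifr* and *Il6st* were found in 21.8% (18.9 to 25.01) of fibroblast/FAP-like cells on day 1 and 46.8% (43.5 to 50.2) on day 3, or 1.58% and 3.95% when thinned to 3000 UMIs. In satellite cell/myoblast-like cells the share was 19.4% (14.2 to 25.6), and 2.76% and 3.98% in monocyte/macrophage-like cells.

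**Figure D5:**
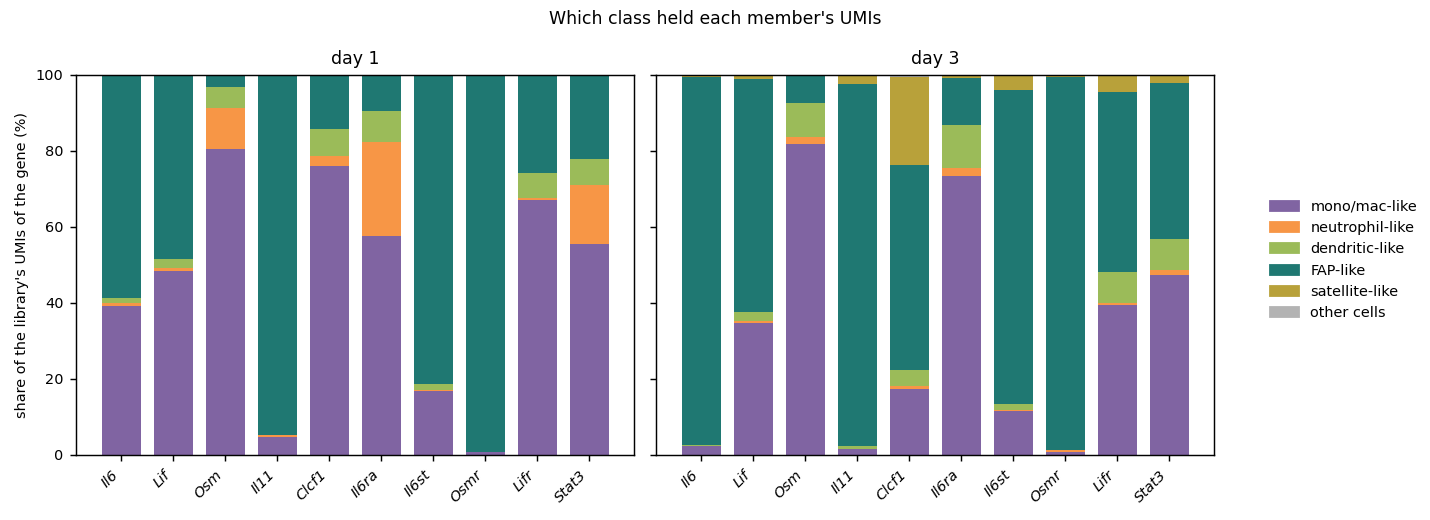
Share of each member's UMIs (percent, over all kept cells of a day) that came from each cell class. For *Il6* the fibroblast/FAP-like share goes from 58.8% to 96.8%, while for *Osm* the monocyte/macrophage-like share stays at 80.4% and 81.8%.

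*Stat3*, the transcription factor downstream of all these receptors, was found in every class. On day 1 it was highest in neutrophil-like cells, at 313 CPM (298 to 329), and lay at 140 (136 to 143) in monocyte/macrophage-like, 138 (129 to 149) in dendritic cell-like and 117 (112 to 122) in fibroblast/FAP-like cells. Day 3 levels were 125 (101 to 153), 83.3 (80.6 to 86.0), 125 (116 to 135) and 131 (127 to 136), with 14.5 in satellite cell/myoblast-like cells. So the neutrophil-like level was 2.49-fold lower on day 3, the monocyte/macrophage-like level 1.68-fold lower, and the other 2 within 1.12-fold of day 1. With each library clustered on its own the neutrophil-like log2 ratio was −0.68 in place of −1.32, short of 2-fold. Within monocyte/macrophage-like cells the *Ifitm6* cluster was highest on both days, at 248 and 153 CPM, and the *Nusap1* cluster, which is led by a mitosis gene, was lowest at 43.8. The day 3 neutrophil-like value carries 16.6% within the foreign-RNA estimate.

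The remaining ligands of the family and their partners were rare, and of 7, 5 had enough UMIs over all cells. Of these, 0 were lower (background 5.63%) and 1, *Ctf1*, was higher (background 27.8%). *Ctf1*, which encodes cardiotrophin-1, went from 0.253 to 1.14 CPM over all cells and was at 4.10 in satellite cell/myoblast-like cells of day 3. *Ebi3*, a subunit of IL-27, was highest in neutrophil-like cells, at 42.8 and 36.7 CPM.

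Of the 5 other receptors, 3 had enough UMIs over all cells. Of these, 0 were lower (background 5.63%) and 0 higher (background 27.8%). *Il11ra1*, the IL-11 receptor, was at 178 CPM in fibroblast/FAP-like cells on day 1 and 223 on day 3, in the same class as *Il11*, with 14.4 and 21.8 CPM in monocyte/macrophage-like cells. *Il11ra1* and *Il6st* were found together in 76.9% and 86.3% of fibroblast/FAP-like cells, or 16.4% and 24.1% at 3000 UMIs. *Cntfr* was at 4.07 and 6.42 CPM in that class.

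Of 11 transducers and brakes, 1 was higher over all cells (background 27.8%) and 1 lower (background 5.63%). The lower one was *Socs3*, the feedback inhibitor of gp130 signalling. It went from 403 to 75.9 CPM in monocyte/macrophage-like cells (log2 ratio −2.41), from 912 to 306 in neutrophil-like cells (−1.57) and from 279 to 136 in dendritic cell-like cells (−1.04). In fibroblast/FAP-like cells, where *Il6* and *Il6st* were highest, it stood at 248 and 229 CPM (−0.12). Within fibroblast/FAP-like cells 0 of the 11 were lower (background 7.5%) and 4 were at least 2-fold higher (background 22.3%). The higher ones included the kinase *Jak2* (25.1 to 96.3 CPM) and the surface proteases *Adam17* (29.9 to 71.3) and *Adam10* (27.1 to 71.1), which can release the IL-6 receptor. *Adam17* was at 80.1 and 122 CPM in monocyte/macrophage-like cells, within the limit.

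Of 13 genes that STAT3 is known to activate, 10 were lower over all cells (background 5.63%) and 0 higher (27.8%). In monocyte/macrophage-like cells 9 were lower (background 5.15%) and 1 higher (28.5%). In neutrophil-like cells 8 of 12 were lower (background 8.52%) and 1 higher (33.7%). In dendritic cell-like cells 6 were lower (background 3.72%) and 0 higher (15.6%). In fibroblast/FAP-like cells 3 were lower (background 7.5%) and 1 higher (22.3%). The median log2 ratios of these genes, in that order of groups, were −1.27, −1.53, −1.41, −0.72 and −0.15. Those of all genes with enough UMIs were 0.46, 0.47, 0.51, 0.28 and 0.28. In monocyte/macrophage-like cells the acute-phase gene *Saa3* went from 282 to 34.8 CPM and the protease inhibitor *Timp1* from 210 to 24.7, while *Myc* went the other way, from 7.05 to 16.3. In fibroblast/FAP-like cells the lower genes were *Timp1* (1898 to 832 CPM), *Cebpb* (1194 to 586) and *Lrg1* (17.0 to 5.45), and *Hp*, which encodes haptoglobin, was higher (18.7 to 88.6). In neutrophil-like cells *Lrg1* went from 1249 to 223 CPM, and the 1 higher gene was *Timp1*, from 13.4 to 92.4, a gene that is abundant in fibroblast/FAP-like cells. These genes answer to other signals as well, and *Socs3* is also counted above. *Lrg1* and *Hp* were at 1249 and 1186 CPM in neutrophil-like cells of day 1. They went from 24.8 to 2.16 and from 74.3 to 17.6 in dendritic cell-like cells. In monocyte/macrophage-like cells they went from 52.4 to 17.0 and from 192 to 66.6. Neutrophil markers were also lower on day 3 in both classes, and the part of neutrophil RNA in the counts of other classes was not tested.

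Genes whose level was most like that of a member over the 9 groups of class and day, among 10388 genes with at least 500 UMIs, were named by a fixed rule with Pearson's r of log2(CPM + 1). For *Osm* they were *Slc15a3* (r = 0.997), *Slfn2* and *Psenen* (both 0.99). For *Osmr* they were *Tfpi2* (0.999), *Adamts2* (0.998) and *Meis2* (0.997). *Il6* was most like *Slc39a7* (0.953), *Cxcl5* (0.932) and *Esam* (0.919), and *Lif* most like *Thbd* (0.962), *Slc39a1* (0.961) and *Coq8b* (0.933). *Clcf1* had the weakest likeness, with *Nab2* (0.845) first, and *Lifr* had *Slc25a1* (0.965). *Il6ra* went with *Def6* (0.993) and *Il6st* with *Tpst1* (0.988). *Il11* went with *Fbln7* (0.995) and *Stat3* with *Serp1* (0.978). The 9 groups share 2 libraries and include cell classes of very different RNA, so these are likenesses of class pattern.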

How the data were processed

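What the authors deposited for each library are UMI counts by gene and barcode, made, per the labels' processing notes, with Cell Ranger 5.0.0 and mm10; they are neither normalized nor filtered. The deposited lists hold 737280 barcodes on day 1 and 6794880 on day 3, so the barcode list, and possibly the kit chemistry, differed with the day and cannot be told apart from it. Cells were chosen as described below. Groups come from the sample labels, with 1 library per day.

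Cells were clustered with Seurat 5.3.0 and sctransform 0.4.2 in R 4.3.3 on 3000 variable features, without naming markers and pathway genes, with 10 PCs and a resolution of 0.8. Clusters were named from at least 3 detected markers. Levels were UMIs summed per class and day, divided by all UMIs of that class and multiplied to 1000000, with exact Poisson intervals. Log2 ratios of day 3 over day 1 had 0.5 UMIs added and an exact binomial interval, both from scipy 1.17.1 under Python 3.11.15. Genes past 2-fold needed 50 UMIs over both days. This is a limit of size, not a test. Foreign RNA was estimated from barcodes with at most 100 UMIs, with stromal markers in immune classes and neutrophil and macrophage markers in the others. Doublets were not removed in the values reported: the caller Scrublet (scanpy 1.11.5) marked 2 and 0 cells by its own threshold and so did not work here, and an alternative removed its 363 and 171 highest-scoring cells. Motifs were searched in RefSeq promoter windows of GRCm38.p6.

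The members and gene lists were chosen with earlier results of these data known. Genes named are the members, the listed family, signalling and target genes, the 3 genes most like each member (the first 1 to 3 are given), and the leading genes of clusters. Some genes of these lists are not reported here. Intervals were run on Poisson counts simulated for the 11643 genes of the monocyte/macrophage-like comparison. Of the intervals of unchanged genes, 95.8% held the true ratio. Of genes set to 0.5 times, 56% came out past 2-fold, and of those set to 0.25, 3 or 5 times, 100%. The intervals assume such counts, so this checks the calculation alone. Clumping of UMIs in few cells was not simulated. UMI intervals cover counting error only.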

Additional observations from a re-analysis of the deposited data

Results flagged for a closer look

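For 4 members the day 3 over day 1 log2 ratio had opposite signs in different cell classes, each with a counting interval that left out 0. For *Il6* it was 0.11 in fibroblast/FAP-like cells, −4.50 in monocyte/macrophage-like cells and −2.91 in dendritic cell-like cells. For *Il6ra* it was 0.20 in monocyte/macrophage-like cells, 0.45 in dendritic cell-like cells and −0.69 in neutrophil-like cells. For *Il6st* it was 0.18 in fibroblast/FAP-like cells and −0.18 in monocyte/macrophage-like cells. For *Stat3* it was 0.16 in fibroblast/FAP-like cells, −0.75 in monocyte/macrophage-like cells and −1.32 in neutrophil-like cells. The median over all genes with enough UMIs was 0.28 in fibroblast/FAP-like and 0.47 in monocyte/macrophage-like cells. It was 0.28 in dendritic cell-like and 0.51 in neutrophil-like cells. The positive ratios of *Il6*, *Il6st* and *Stat3* in fibroblast/FAP-like cells, and of *Il6ra* in monocyte/macrophage-like cells, lay below these medians. That of *Il6ra* in dendritic cell-like cells lay above. With 1 library per day the difference between classes was not tested. The cells of the 2 days lie mostly in different clusters in both large classes, and the foreign-RNA estimate of neutrophil-like cells goes from 2.03% to 28.1%. Their part in these ratios was not tested.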

How the results depend on the processing

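No paired analysis was possible because each day has 1 library. Leaving out a replicate was not possible for the same reason. Each member's log2 ratio was recomputed under up to 16 alternatives, 536 comparisons in all: 402 stayed within the counting interval of the reported value, 7 had the opposite sign to a reported ratio whose interval left out 0, and 127 left the interval otherwise. Of 40 pairs of member and class, 29 stayed on the same side of 2-fold throughout. Of the alternatives, 3 were chosen after seeing the data: thinning to 1000 UMIs, leaving out cells of clusters mostly of the other library, and leaving out endothelial-like cells.

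Those 7 were for *Il11* over all cells (0.86 when cells with fewer than 200 genes per 1000 UMIs, in place of 200 genes, were left out, 0.011 by the mean CPM of single cells), for *Il6ra* over all cells (0.0595 when thinned to 3000 UMIs) and in neutrophil-like cells (0.0647 with each library clustered on its own, 0.13 with cells named by their highest marker score), for *Osm* in fibroblast/FAP-like cells (0.47 with doublets removed), and for *Clcf1* there (0.00564 when thinned to 1000 UMIs). Ratios whose interval held 0 changed sign too: *Lifr* in monocyte/macrophage-like cells (up to 0.47), *Il6st* (down to −0.59) and *Stat3* (up to 0.40) in dendritic cell-like cells, and *Il6ra* in fibroblast/FAP-like cells (down to −0.46). In dendritic cell-like cells the calls of *Il6* and *Lif* held in 11 of 12 alternatives and that of *Osm* in 8, and in neutrophil-like cells that of *Osm* held in 10 of 13 and that of *Stat3* in 11.

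The count of members higher over all cells went from 1 to 0 at 3-fold, and in monocyte/macrophage-like cells from 0 to 1 with a minimum of 20 UMIs or none. In fibroblast/FAP-like cells the 1 lower member became 0 with the filter on genes per UMI, the mean CPM of single cells, both thinnings and 3-fold, 2 with each library clustered on its own or ambient RNA subtracted, and 3 at 1.5-fold. The 1 higher member there became 2 with each library clustered on its own, ambient RNA subtracted, thinning to 3000 UMIs or 1.5-fold, and 0 at 3-fold. For each cause beyond the alternative's own construction, the cause was not tested.

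The day 1 class with the highest level was the same under 16 of 16 alternatives for *Il6*, *Lif*, *Osmr*, *Il6ra* and *Stat3*, 15 for *Osm*, *Il11*, *Clcf1* and *Il6st*, and 12 for *Lifr*. *Lifr* was highest in endothelial-like cells at a mitochondrial limit of 15%, with log-normalization and with 20 PCs. Depth limits *Il11* throughout and every member in the 257 neutrophil-like cells of day 3.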
